A study of Homo sapiens with 6 samples.

Results

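Genes lying nearest to the strongest NRF2 regions that both CDDO-Im libraries listed and neither vehicle library listed are described here across the 4 ChIP-seq libraries of the series. There were 7 such genes, ANAPC5, MRPL3, SH3TC1, NUP93, LRRC8D, CTTNBP2 and SOS1, of 19970 protein-coding genes on chromosomes 1 to 22 and X. They were chosen by the lower of the 2 CDDO-Im fold enrichments of their region, so those values are a description and carry no test. Every peak with its summit in one of the genes or within 150 kb of either end was then taken, which gave 12 regions of 19331 in all, where a region joins peaks that overlap by at least 1 bp. All positions are on hg38.

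Binding was measured in HMC3 cells, an established line of human microglia, with an antibody against NRF2. The groups were 2 CDDO-Im libraries (30 nM for 4 h) and 2 vehicle libraries. The labels carry the same treatment text for every sample, so groups were read from the titles, and nothing says that replicates came from separate cultures. The 2 input samples were not analysed here.

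NRF2 is a transcription factor that is held low by KEAP1 and accumulates when electrophiles such as the synthetic triterpenoid CDDO-Im modify KEAP1. It pairs with small MAF proteins and binds the antioxidant response element, with the core TGACNNNGC, near genes of antioxidant defence and detoxification. Of the 7 genes here, ANAPC5 belongs to cell division, NUP93 to nuclear transport and MRPL3 to mitochondrial protein synthesis. SOS1 belongs to growth factor signalling, LRRC8D to ion transport and CTTNBP2 to the cytoskeleton. The function of SH3TC1, a protein with SH3 and tetratricopeptide repeat domains, is little described. These functions do not stand for all of the strongest regions. Those nearest to GSTM5, a glutathione transferase gene, and AKR1C3, an aldo-keto reductase gene, ranked 11 and 15 by the same lower fold enrichment. Neither gene is among the 7.

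The deposited lists held 4024 and 12433 peaks for CDDO-Im 1 and 2, against 4227 and 7448 for vehicle 1 and 2. The genome-wide background, in tags per position, was 0.332 and 0.367 in the CDDO-Im libraries against 0.316 and 0.315 in the vehicle libraries, and stands in for depth, which the lists do not give. The tags at each summit were worked back from the authors' fold enrichment and −log10 p. Of the 19331 regions, 1475 (7.63%) were gained, meaning present in both CDDO-Im lists but in neither vehicle list. Outside dense megabases (those with more than 20 joined regions) 1428 of 7386 regions (19.3%) were gained. None of the 7 chosen regions lay in a dense megabase, and their megabases held 3 to 5 regions each.

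ANAPC5, a subunit of the anaphase-promoting complex, the ubiquitin ligase that drives exit from mitosis, had the highest-ranked region of the 7. The region (chr12:121316215-121316583, rank 2 of 1475) lay inside the gene and was listed with 38 and 43 tags in CDDO-Im 1 and 2, at fold enrichments of 28 and 25. Its −log10 q was 56.7 and 55. Both CDDO-Im libraries were thus alike in tags, and neither vehicle library listed a peak there.

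MRPL3, a protein of the large subunit of the mitochondrial ribosome, had a region outside the gene, 8453 bp beyond its 3′ end (chr3:131453511-131453933, rank 3). Tags numbered 38 and 50 in CDDO-Im 1 and 2, with fold enrichments of 24.8 and 33.1 and −log10 q of 50.6 and 74.9. The deposited fold enrichment was higher in CDDO-Im 2 here, in contrast to ANAPC5. At ANAPC5 tags were not fewer in CDDO-Im 2 (43 against 38), but the local background was higher, at 0.762 against 0.395 in CDDO-Im 1.

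SH3TC1 had the widest gap between the 2 CDDO-Im libraries. Its region (chr4:8228539-8228998, rank 5), inside the gene, held 32 and 57 tags in CDDO-Im 1 and 2, at fold enrichments of 23.9 and 42.4. The second value is the highest CDDO-Im 2 fold enrichment of any gained region. Its summits lay 1 bp apart in the 2 libraries, the closest of the 7.

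NUP93, a scaffold protein of the inner ring of the nuclear pore, had a region inside the gene (chr16:56812873-56813263, rank 7) with 31 and 48 tags in CDDO-Im 1 and 2. Fold enrichments were 23.1 and 31.8, and −log10 q was 43.7 and 71.0. NUP93 and MRPL3 were the members with no other region within 150 kb in any library.

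LRRC8D encodes a subunit of the volume-regulated anion channel, which lets chloride and small organic solutes out of swollen cells. Its region (chr1:89938267-89938686, rank 12) lay 1894 bp beyond the 3′ end and held 29 and 48 tags in CDDO-Im 1 and 2, at fold enrichments of 20.9 and 35.8.

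CTTNBP2, a binding partner of the actin regulator cortactin known from dendritic spines of neurons, was the most distant member. The region assigned to it (chr7:117997821-117998236, rank 13) lay 124595 bp upstream of the gene. The 2 CDDO-Im libraries held 35 and 36 tags, at fold enrichments of 20.4 and 24.5. CTTNBP2 was the only one of the 7 with fewer tags over the genome-wide background in CDDO-Im 2 than in CDDO-Im 1, at a ratio of 0.928.

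SOS1, the exchange factor that loads Ras with GTP downstream of growth factor receptors, had a region at the far 3′ end of the gene (chr2:38982502-38982921, rank 15), 1152 bp inside that end. It held 26 and 41 tags in CDDO-Im 1 and 2, at fold enrichments of 20.3 and 29.3. These were the fewest CDDO-Im 1 tags of the 7.

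Across the 7 genes, tags at the chosen summits ran from 26 to 38 in CDDO-Im 1 and from 36 to 57 in CDDO-Im 2. The ranges overlap only between 36 and 38 tags. Over the genome-wide background the values were 78.4 to 115 and 98.0 to 155. CDDO-Im 2 was the higher of the 2 in 6 of 7 members on that scale, where it was higher in 73.0% of all gained regions. Median tags of the members were 32 and 48 in CDDO-Im 1 and 2, against 11 and 15 over all 1475 gained regions, a difference that the choice by fold enrichment sets.

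**Figure D1:**
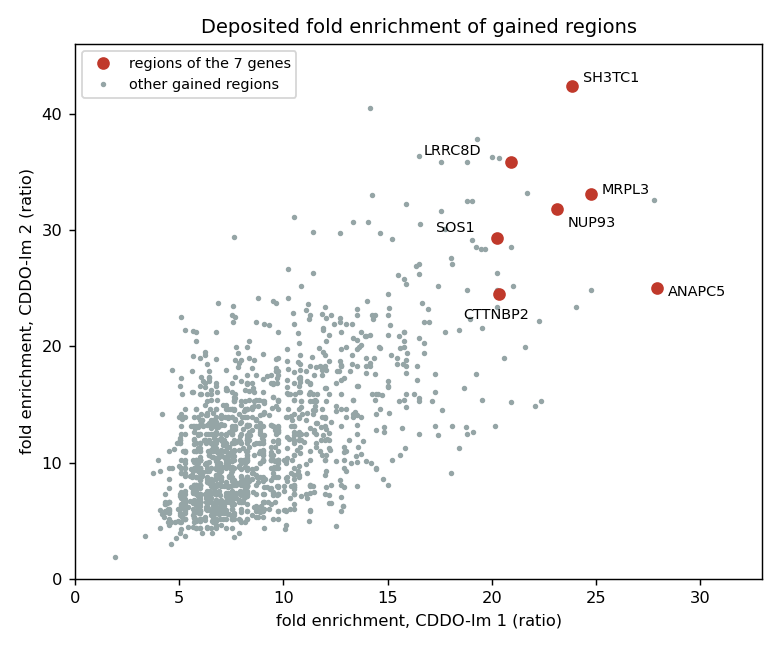
Deposited fold enrichment (ratio, authors' values) in CDDO-Im 1 (x axis) and CDDO-Im 2 (y axis) for the 1475 gained regions, with the regions of the 7 genes as large red points and the other gained regions as small grey points. The 7 sit at the upper right, at 20.3 to 28 in CDDO-Im 1 and 24.5 to 42.4 in CDDO-Im 2, and other gained regions lie among them.

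The 7 genes are not all of the genes at that height. The region nearest to SYT1 was above all of them, with a lower fold enrichment of 27.78, and the regions nearest to RPH3A, SCN9A, GSTM5 and TBXAS1 stood between members. The lowest member, SOS1, had a lower fold enrichment of 20.28 and shared that value with the regions nearest to AKR1C3, GPAT3 and JADE3. The next region below, nearest to CDH26, had 20 with 42 and 65 tags, more tags in both CDDO-Im libraries than SOS1. The limit of the ranking therefore separates SOS1 from its neighbours by less than the gap between its own 2 libraries.

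The 2 CDDO-Im libraries placed these peaks at nearly the same position, a feature the ranking did not use directly. The summits of the 7 regions lay 1 to 32 bp apart, with a median of 14 bp, and ANAPC5 had the 32 bp. Among all 1475 gained regions the median was 21 bp, and 67.9% had summits at most 32 bp apart, a limit set by the members' own largest gap. Among the first 100 gained regions, which include the 7, 90.0% did. Close summits thus went with high rank, and they are not read as separate from the choice by fold enrichment. The peaks of the 7 were 359 to 410 bp wide in CDDO-Im 1 and 328 to 460 bp in CDDO-Im 2. Medians for all gained regions were 274 and 294 bp. Widths of other regions of like fold enrichment were not compared, so width is not read as separate from the choice by fold enrichment.

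Absence from a vehicle list sets an upper limit and is not a measurement of 0. The lowest −log10 p listed was 4.04 in vehicle 1 and 4.10 in vehicle 2. If listing rested on p alone, a vehicle summit could hold up to 3 tags at the genome-wide background without being listed. At the local background of the CDDO-Im libraries, scaled to each vehicle library, the limit was 3 tags at SH3TC1, LRRC8D and SOS1, 4 at ANAPC5, MRPL3 and NUP93, and 5 at CTTNBP2. Over background, the lower CDDO-Im library was then at least 6.16-fold (CTTNBP2) to at least 10.1-fold (SH3TC1) higher than the most that either vehicle library could hold unlisted. The regions were chosen for high CDDO-Im fold enrichment and for no vehicle peak. Both sides of this ratio are thus set by the choice, and it is a description that carries no test. A vehicle background above the scaled one would raise these limits, and intervals from tag counts would cover counting error only.

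**Figure D2:**
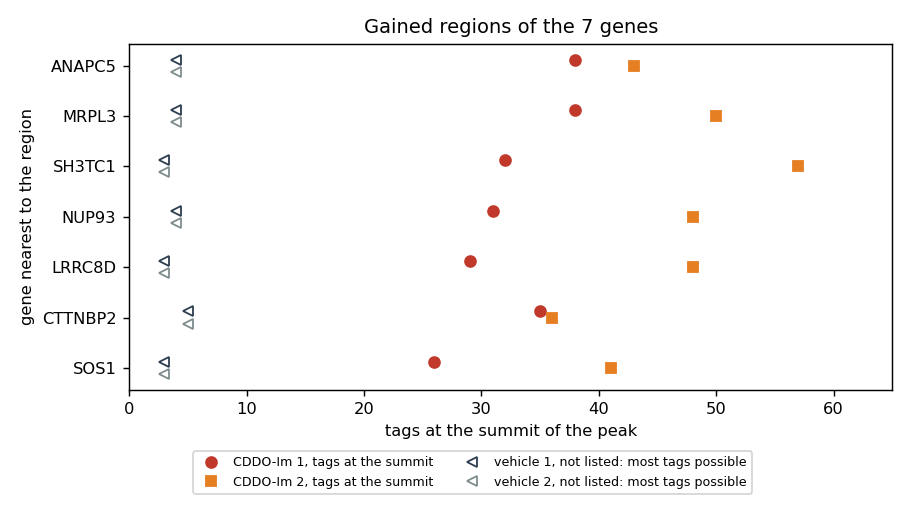
Tags at the summit (x axis) for the chosen region of each of the 7 genes (y axis, by rank). Filled points are the CDDO-Im libraries (26 to 57 tags) and open triangles are the most tags (3 to 5) that each vehicle library could hold without a listed peak, if listing rested on p alone and its local background was the scaled CDDO-Im one.

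The chosen regions lay away from gene starts. Of the 7, 4 lay inside their gene (ANAPC5, SH3TC1, NUP93 and SOS1), where 43.1% of all gained regions lay inside a protein-coding gene. Those 4 summits stood 69.0% (NUP93), 79.1% (SH3TC1), 82.3% (ANAPC5) and 99.2% (SOS1) of the way from the 5′ to the 3′ end of the gene. Of the 520 gained regions inside a protein-coding gene of known strand, 31.3% lay at least as far along as the NUP93 summit, a limit that the 4 themselves set, so nothing particular to them is read from it. Whether they fall in an exon or an intron is not given by the table used here. The distance to the nearest annotated start of the gene itself was 29.5 kb at SH3TC1, 29.6 kb at NUP93, 36.0 kb at ANAPC5, 49.2 kb at MRPL3, 117 kb at LRRC8D, 125 kb at CTTNBP2 and 138 kb at SOS1.

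All 7 regions were at least 15 kb from every annotated protein-coding start, as were 86.3% of the 1384 gained regions on chromosomes with such starts in the table, so this was not particular to the 7. The nearest start belonged to another gene for 3 of them. The ANAPC5 region lay 19.7 kb from the start of CAMKK2, a calcium-dependent kinase that activates AMPK, nearer than ANAPC5's own start. The LRRC8D region lay 56.6 kb from the start of ZNF326, and the SOS1 region 92.8 kb from that of ARHGEF33, whose other end was 7.25 kb away. For SH3TC1, NUP93, MRPL3 and CTTNBP2 the nearest start was the gene's own, 4 of 7, where 73.9% of gained regions had their nearest start in their nearest gene. The name of a gene beside a region is a matter of distance only, and no expression was measured in the data used here.

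None of the 7 summits lay in a promoter window (250 bp before to 50 bp after an annotated start). The 7 genes had 13 such windows, and the core TGACNNNGC was in 0 of them on either strand, where 13.3% of all 35116 promoter windows of the RefSeq table (GRCh38.p14) held it. With the looser TGANNNNGC, which contains the first motif, 4 of the 7 genes had a match, against 49.6% of 15811 protein-coding genes. The sequence of the chosen regions themselves was not read, as no genome was used here. For contrast, 11 of the 1475 gained regions had their summit in a promoter window, and 9 of those 11 lay in a window that held TGACNNNGC. The promoter of ANAPC5 is shown as that of the highest-ranked member, beside stretches of the promoters of ME1, a cytosolic NADPH-producing malic enzyme, and TXNRD1, a thioredoxin reductase, that lie at gained regions of lower rank (541 and 999). Sequences are from RefSeq, 5′ to 3′ on the strand of the gene, and capitals mark a match to TGACNNNGC or its reverse complement.
ANAPC5, chr12:121352362-121352661, minus strand: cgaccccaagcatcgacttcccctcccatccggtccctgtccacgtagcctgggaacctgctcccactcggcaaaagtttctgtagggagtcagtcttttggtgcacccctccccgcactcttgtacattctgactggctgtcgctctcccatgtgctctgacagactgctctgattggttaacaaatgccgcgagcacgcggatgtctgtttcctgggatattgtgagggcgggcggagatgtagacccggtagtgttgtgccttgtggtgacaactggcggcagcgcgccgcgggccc
ME1, chr6:83431154-83431214, minus strand: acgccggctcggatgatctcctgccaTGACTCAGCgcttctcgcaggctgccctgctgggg
TXNRD1, chr12:104286904-104286964, plus strand: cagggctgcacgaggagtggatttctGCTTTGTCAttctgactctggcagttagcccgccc
The ME1 match lay 42 bp from the summit of a region with 10 and 12 tags in CDDO-Im 1 and 2, and the TXNRD1 match 33 bp from a summit with 16 and 17 tags. The ANAPC5 region, with 38 and 43 tags, lay 36.0 kb downstream of the start that the ANAPC5 promoter above surrounds. ME1 and TXNRD1 are examples from the 11, and others ranked higher, the first at rank 42. Their stretches were cut around a match inside a gained region, while the ANAPC5 sequence is a whole promoter window away from its region. The lack of a match in that window thus says nothing on the ANAPC5 region, whose sequence was not read. A match is a description of letters in these windows only.

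Outside the chosen regions, the 7 windows held 5 further regions, in 5 different windows. The CDDO-Im libraries listed 4 and 3 peaks in them and the vehicle libraries 2 and 2. The difference of 0.58 on the log2(number + 1) scale had an exact permutation p of 0.333 (two-sided, n = 2 and 2), the smallest that 2 libraries against 2 can give. With windows of 50 kb each library listed 1 such peak and the difference was 0.00. It was 0.50 with peaks of a −log10 q from 5 upward (exact permutation p = 0.667) and 1.08 from 10 upward (exact permutation p = 0.333, both n = 2 and 2). On chromosomes 1 to 22 and X, the whole lists held 3882 (CDDO-Im 1), 12244 (CDDO-Im 2), 4098 (vehicle 1) and 7308 (vehicle 2) peaks. The window counts were not scaled to these totals, so whether the difference is particular to the 7 windows was not tested.

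**Figure D3:**
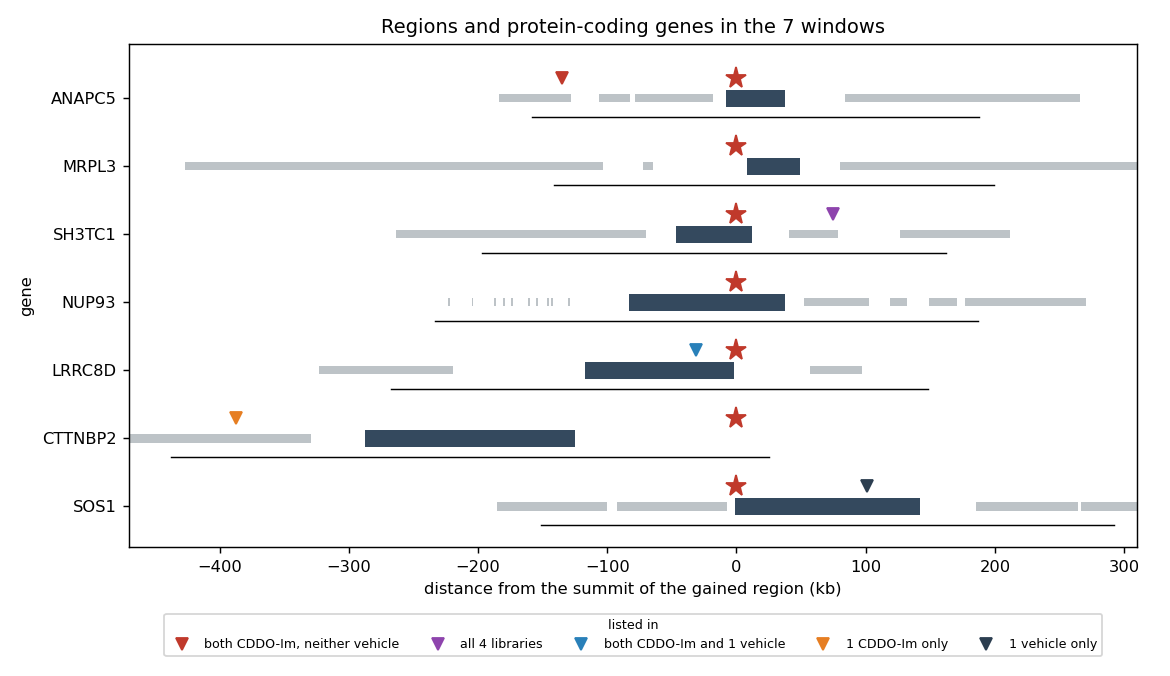
Map of the 7 windows, with distance from the summit of each gene's chosen region on the x axis (kb). Dark bars are the 7 genes, grey bars other protein-coding genes, the thin line under each row the 150 kb window, stars the chosen regions and triangles the 5 further regions, coloured by the libraries that list them. In 4 rows the star lies on the dark bar, and only the MRPL3 and NUP93 rows have no triangle.

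The SH3TC1 window held the strongest of these and the only one listed in all 4 libraries. This region (chr4:8303509-8304088) lay 62.6 kb outside SH3TC1, inside HTRA3, a secreted serine protease gene, and 75 kb from the chosen summit. It held 78 and 110 tags in CDDO-Im 1 and 2, against 13 and 28 in vehicle 1 and 2. Over the genome-wide background these were 235 and 299 in the CDDO-Im libraries, against 41.2 and 89.0 in the vehicle libraries. Each CDDO-Im value exceeded each vehicle value, with a difference of 2.13 on the log2 scale and an exact permutation p of 0.333 (two-sided, n = 2 and 2), the smallest possible. Outside dense megabases 230 regions were listed in all 4 libraries; in 87.0% of them both CDDO-Im values exceeded both vehicle values, and their median difference was 1.68 on the log2 scale, with quartiles of 1.24 and 1.96. The HTRA3 region ranked 31st of those 230 by this difference. It thus had more tags than the chosen SH3TC1 region in both CDDO-Im libraries, and was no gained region because vehicle peaks were listed there.

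LRRC8D had a second region inside the gene (chr1:89906619-89906986), 31.7 kb from the chosen one. It held 27 and 28 tags in the CDDO-Im libraries, against 9 in vehicle 2, while vehicle 1 listed no peak. Its fold enrichments were 18.5 and 16.5 in the CDDO-Im libraries, against 6.67 in vehicle 2. CDDO-Im tags were close to those of the chosen region in CDDO-Im 1 (27 against 29) and lower in CDDO-Im 2 (28 against 48).

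The ANAPC5 window held the single further gained region. It lay inside P2RX7, the gene of an ATP-gated ion channel of immune cells, 127 kb outside ANAPC5 (chr12:121181266-121181560), with 8 and 10 tags in CDDO-Im 1 and 2. The summits lay farther apart than at the chosen region, and the −log10 q was 3.22 and 7.36. At fewer tags than the medians of all gained regions (11 and 15), this was a weak region.

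The other 2 regions were listed in 1 library each. In the SOS1 window, vehicle 1 listed a peak inside the gene (chr2:39084093-39084293) with 5 tags and a −log10 q of 1.43, close to the lowest value listed in that library (1.31). In the CTTNBP2 window, CDDO-Im 1 listed a peak 99.6 kb outside the gene with 6 tags and a −log10 q of 3.44. Neither had a counterpart in the other library of its group, and both rest on few tags.

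**Figure D4:**
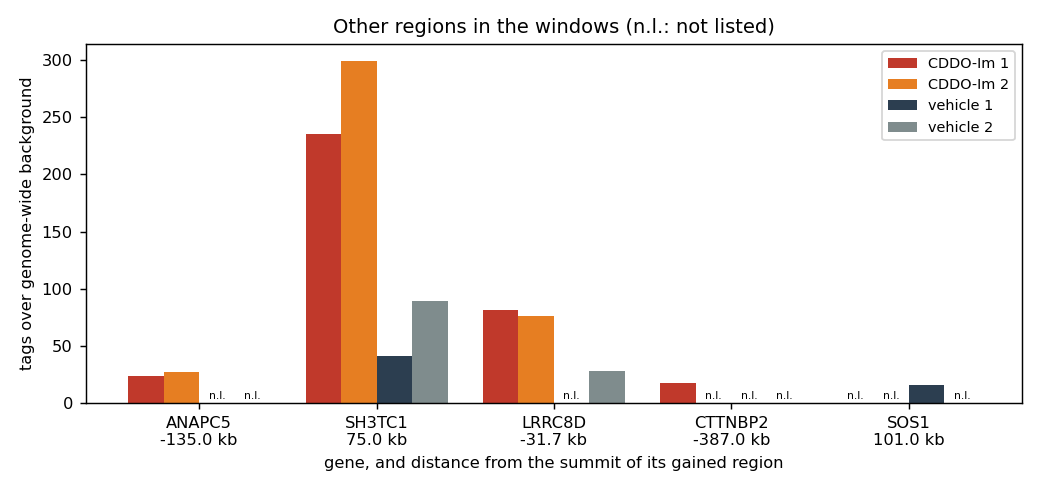
Tags over the genome-wide background (y axis) in each library for the 5 regions outside the chosen ones, named on the x axis by gene and by distance from the chosen summit; n.l. marks a library without a listed peak. CDDO-Im bars stand above vehicle bars at the SH3TC1 (235 and 299, against 41.2 and 89.0) and LRRC8D windows, and the CTTNBP2 and SOS1 windows have 1 bar each.

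By gene, 3 of the 7 (ANAPC5, SH3TC1 and LRRC8D) had another region in reach that both CDDO-Im lists held. That count was 1 with windows of 50 kb, and 2 with peaks of a −log10 q from 5 or from 10 upward. Of the 3280 protein-coding genes with a gained region in that reach (16.4% of all 19970), 22.6% did. A vehicle peak lay in the window of 3 of the 7 (SH3TC1, LRRC8D and SOS1), where 31.3% of the 3280 genes had one. A region of all 4 libraries lay in 1 of the 7 windows, where 4.82% of the 3280 genes had one. With 7 genes, 1 gene moves these shares by a large step.

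Other protein-coding genes share the windows. NUP93 had 14, of which 10 were metallothionein genes, whose products bind zinc and copper; the nearest, MT1X, lay 129 kb from the chosen summit. ANAPC5 and SOS1 had 5 each, SH3TC1 and MRPL3 3 each, LRRC8D 2 and CTTNBP2 1. LRRC8C, another subunit of the same anion channel as LRRC8D, overlapped the LRRC8D window at 219 kb from the chosen summit. By fold enrichment in the 2 CDDO-Im libraries, the genes most like the median of the 7, with no vehicle peak in their window, were CETP, HERPUD1, MT1G, MT1H, MT1X and SLC12A3, all at a distance of 0 on the log2 scale because their windows hold the NUP93 region. NEK11 and NUDT16 (0.114) share the MRPL3 region. Of genes whose window holds none of the 7 chosen regions, AMPD2, GNAI3 and GNAT2 came next (0.213), all through 1 region that lies nearest to GSTM5 and outside all 3, with fold enrichments of 20.9 and 28.5. The 2249 candidates were compared on 2 libraries only.

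Partners of the 7 proteins were near gained regions about as often as other genes. In the lists of their complexes and pathways, 23 of 127 genes besides the members (18.1%) had a gained region in the gene or within 150 kb, against 16.4% of all protein-coding genes. Without CDDO-Im 1 the count was 56 of the 127, where 39.3% of all protein-coding genes had a gained region. Without CDDO-Im 2 it was 35 of the 127, where 26.2% of all protein-coding genes had one. Both settings use 1 CDDO-Im list. The anaphase-promoting complex had 3 of 15 (ANAPC1, ANAPC15 and CDC27), and the region near ANAPC15 held 21 and 41 tags in CDDO-Im 1 and 2 but lay 144 kb away, nearest to RNF121. The nuclear pore had 5 of 26 (SEC13, TPR, NUP153, NUP214 and RANBP2), and SEC13, a protein of the outer ring, had its region inside the gene with 13 and 17 tags. RANBP2 (12 and 22 tags) and NUP214 (13 and 5 tags), both on the cytoplasmic side of the pore, also had theirs inside the gene.

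The Ras pathway had 3 of 17, among them SOS2 and MAPK3, with regions 116 and 76.6 kb outside the genes. SOS2, the close relative of SOS1, had 10 and 9 tags there. SOS1 had 26 and 41, but its region was chosen by fold enrichment. The mitochondrial large ribosomal subunit had 7 of 47, of which MRPL22 lay nearest to its region, at 8.23 kb with 8 and 19 tags. The cortactin and striatin list had 5 of 17, among them CTTN, CTTNBP2NL, STRN4 and STK25. Cortactin itself, CTTN, had a region 20.8 kb away with 7 and 11 tags. The 4 other subunits of the anion channel and SH3TC2, the relative of SH3TC1, had 0 gained regions. SH3TC2 did have a region in reach that both CDDO-Im lists held, but a vehicle list held it too. The highest-ranked partner was ANAPC15, at rank 67 of 1475. All members ranked above it, but they were chosen by that ranking, so the order is largely set by the choice.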

How the data were processed

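The 4 deposited peak lists, 1 per library, give per peak a fold enrichment (ratio), a −log10 p, a −log10 q, a score that is 10 times the −log10 q as a whole number, and the summit, all as the authors deposited them; nothing was pooled. The submitters' processing notes name MACS2 2.2.7.1, BWA 0.7.17 and bcl2fastq 2.15.0, and the builds hg38 and GRCm38; chromosome names in the lists are human, and positions are taken as hg38. How controls, thresholds and duplicates were handled is not given in the sources used.

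Tags at each summit were recovered with fold read as (tags + 1) / (background + 1) and p as the chance of more tags under a Poisson background. A whole number of tags fitted 100% of peaks in each library (tolerance 0.001 plus 0.0002 of the value), and 97.7% to 99.4% had a single match. The lowest background of a library served as its scale in place of depth. Recovery and region classes were tested on simulated data. Where a region had several peaks of a library, that with the highest fold was used. Groups were compared by exact permutation over libraries on the log2 scale, with no replicate block. Peaks per library in the windows were compared in this way, without scaling to the length of each list. Counts of regions or genes were set beside the same over all regions or genes, with no test.

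Genes, ends and starts come from RefSeq tables on GRCh38.p14. Starts cover 15811 of 19970 protein-coding genes, and any gene without one lay farther from the chosen summit than the nearest listed start in all 7 windows. Chromosome 8 is not used for distances to starts. Members and lists were chosen with earlier results of these data known. Named genes are the members, their neighbours in the ranking and in the windows, the 5 most alike (6 were tied) and list genes with a gained region; AMPD2, GNAI3, GNAT2, NEK11 and NUDT16 were added after seeing the values, and some genes under the rule are not reported here. Alternatives were other windows, thresholds, joins, scalings and leaving out each library. Python 3.11.15, pandas 2.3.3 and scipy 1.17.1 were used.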

Additional observations from a re-analysis of the deposited data

How the results depend on the processing

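The 7 chosen regions counted as gained under each alternative, but the rule that chose them fixes this for the q thresholds and for leaving out a library, so it is no sign of stability. The peak difference outside the chosen regions was 0.00 with windows of 50 kb, 0.65 with 300 kb, 0.50 and 1.08 with a −log10 q from 5 and from 10 upward, and 0.42 to 0.74 without 1 library. The difference in the HTRA3 region was 1.58 without vehicle 1, 2.69 without vehicle 2, 1.96 without CDDO-Im 2, 2.31 without CDDO-Im 1, and 2.18 to 2.29 under other scalings. With a replicate block these differences were 0.58 and 2.13, with an exact sign-flip p of 0.5, the smallest 2 pairs allow; replicate numbers share no stated origin, and the deviations of same-numbered libraries had a correlation of -0.04 across regions of all 4 libraries.

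Further gained regions numbered 0 with windows of 50 kb, 2 with 300 kb, 0 when only a −log10 q from 5 upward was kept, and 1 to 2 without 1 library (2 without CDDO-Im 2 or vehicle 2). Members with another CDDO-Im region numbered 1 with windows of 50 kb, 2 under either q threshold and 3 to 4 without 1 library. Of the 127 pathway genes, 8 had a gained region with windows of 50 kb, 38 with 300 kb and 11 with a −log10 q from 10 upward. Without 1 library they numbered 24 to 56, with 56 without CDDO-Im 1 and 35 without CDDO-Im 2. The shares of all protein-coding genes were 7.56% with 50 kb, 27.4% with 300 kb and 11.4% with that q threshold. They were 39.3% without CDDO-Im 1 and 26.2% without CDDO-Im 2. Outside dense megabases, added after the data were seen, the count of pathway genes was 23. The looser motif, also added then, matched 4 of 7 genes, against 0. The cause of these shifts was not tested beyond what fewer libraries, peaks or bases hold. The motif search at the summits was not run, as it needs a genome. Depth sets no firm limit on vehicle tags at the 7 chosen summits: the 3 to 5 tags hold only if listing rested on p alone and the vehicle background was the scaled CDDO-Im one.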
